A study of Mus musculus with 24 samples.

Results

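The S100 genes of MC38 cells were followed across 6 groups of libraries that differed in an Ado guide RNA and in exposure to the cytokine TNF. The genes S100a4, S100a6, S100a10, S100a11, S100a13 and S100a16 were chosen by family name and selected on being detected, that is on having a row of values in the deposited table, so 6 of its 15390 genes were described and their detection is not itself a finding. MC38 is a mouse colon carcinoma line. The tested genotype, called Ado KO as in the labels, consisted of 2 populations that carried Ado gRNA 1 or Ado gRNA 2, and the control genotype of 2 populations with control gRNA 1 or control gRNA 2. Each population was left untreated or received TNF for 1 h or 6 h, with 2 libraries each, which gave 4 libraries for each of Ado KO untreated, control untreated, Ado KO TNF 1 h, control TNF 1 h, Ado KO TNF 6 h and control TNF 6 h cells. All 24 libraries came from cells grown in DMEM with fetal calf serum, and all were made from total RNA with a kit that reads 1 tag near the 3′ end of a polyadenylated transcript. Libraries are written below as guide number and library number, so 2-1 is the first library of guide 2. The unit is log2 CPM, the log2 of tag counts scaled to a common total, in which a difference of 1 is a doubling.

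Some facts of the whole series limit every value. The labels do not state whether the 2 libraries of a guide and treatment came from separate cultures, so each p-value refers to variation among libraries that may be no more than technical repeats. No untreated 6 h libraries were among those analysed, so at 6 h TNF and the time in culture cannot be told apart, and in bulk RNA neither can fewer cells with a transcript and less of it per cell. Ado itself lay between 5.00 and 5.53 log2 CPM in all 24 libraries and passed no genotype test (limma adjusted p = 0.889 untreated, 0.484 at 1 h and 0.63 at 6 h), and since a tag outside the edited stretch checks nothing, the genotype rests on the labels. Of 6 genes known to respond to TNF, among them Nfkbia and Cxcl1, all 6 were higher at 1 h and at 6 h in both genotypes. At 1 h 5 of them in Ado KO and 6 in control cells had a limma adjusted p under 0.05, and at 6 h 6 in both. Of all genes tested, 0.256% in Ado KO and 0.392% in control cells had one at 1 h, and 6.44% and 18% at 6 h. Of 11 epithelial markers only Cdh1, Krt8 and Krt18 had rows. They summed to 0.294 to 3.37 CPM per library, so markers of the line's epithelial origin were at or near the bottom of the scale. Of 10 mesenchymal markers 8 had rows, and Col1a1 and Col1a2 had none. The intermediate filament gene Vim was the highest of them, with a mean of 10.48 log2 CPM. Fn1 averaged 5.97, Col3a1 5.58, Cdh2 4.28, Twist1 3.76, Zeb1 3.43, Zeb2 2.87 and Snai2 1.53.

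S100 proteins are small calcium-binding proteins that mostly act as dimers. Each chain has a pair of EF hands, helix-loop-helix calcium sites, and calcium binding opens a surface that grips target proteins such as annexins and cytoskeletal motors. S100a4, also known as metastasin or fibroblast-specific protein, binds non-muscle myosin and is linked to motility and metastasis. S100a6, calcyclin, binds the ubiquitin ligase adaptor encoded by Cacybp, and S100a11, calgizzarin, binds annexin A1. S100a10, or p11, has lost calcium binding and forms a complex with annexin A2 at the cell surface, where the complex is a receptor for plasminogen. S100a13 takes part in the release of FGF1 and interleukin 1 alpha, which lack a signal peptide. S100a16 is a widely expressed member whose role is less well defined.

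All 6 genes lay on chromosome 3 and on its plus strand (GRCm38, GENCODE M21). S100a13 (90514435 to 90524581), S100a16 (90537254 to 90543151), S100a4 (90603771 to 90606045) and S100a6 (90612882 to 90624181) formed a cluster of 109.7 kb. S100a11 (93520488 to 93526287) and S100a10 (93555080 to 93564643) stood together 2896 kb away. Promoter windows in RefSeq matched 5 of the 6 genes in 6 windows, and S100a10 had no entry. Of these, 3 are printed, for S100a4, S100a6 and S100a11, which gave calls described below and differ in their motifs. S100a13 gave calls too, but its window reaches into S100a1 on the other strand and is not printed; it had no match to the motifs searched. The letters run 5′ to 3′ up to the base before the RefSeq or the GENCODE start, whichever comes first (GRCm38.p6). Capitals mark matches to the TATA box TATAAA, the AP-1 site TGANTCA or the GC box GGGCGG on either strand. Distances below are counted from the RefSeq start, where the searched 250 bases end. The printed letters of S100a6 and S100a11 stop short of it, at 238 and 242 of the 250 bases.
S100a4 promoter, chr3:90603520-90603769, plus strand: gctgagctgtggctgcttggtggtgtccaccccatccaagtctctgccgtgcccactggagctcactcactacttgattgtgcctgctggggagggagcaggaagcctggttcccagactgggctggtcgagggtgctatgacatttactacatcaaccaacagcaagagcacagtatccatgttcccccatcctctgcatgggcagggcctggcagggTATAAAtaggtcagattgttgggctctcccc
S100a6 promoter, chr3:90612644-90612881, plus strand: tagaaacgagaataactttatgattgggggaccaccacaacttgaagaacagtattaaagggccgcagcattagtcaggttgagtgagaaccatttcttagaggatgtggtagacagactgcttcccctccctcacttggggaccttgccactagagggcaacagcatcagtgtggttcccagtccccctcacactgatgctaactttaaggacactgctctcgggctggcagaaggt
S100a11 promoter, chr3:93520246-93520487, plus strand: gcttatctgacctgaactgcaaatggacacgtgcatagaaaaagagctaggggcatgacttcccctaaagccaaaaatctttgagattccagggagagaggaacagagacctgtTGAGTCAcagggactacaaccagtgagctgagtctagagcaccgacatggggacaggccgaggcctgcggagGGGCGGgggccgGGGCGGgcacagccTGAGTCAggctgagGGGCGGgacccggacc
The S100a4 window, which lies in an intron of the overlapping gene Gm42674, held TATAAA 31 bases before the start, a motif found in 12.4% of all 32851 RefSeq mouse windows of the same kind. The S100a11 window held no TATAAA but 2 matches to TGANTCA, 38 and 136 bases before the RefSeq start, and 3 to GGGCGG. Of all windows 6.75% held TGANTCA and 32.7% held GGGCGG. The S100a11 window also held the E-box CACGTG once, 223 bases before the RefSeq start. This E-box, a motif of 6.02% of all windows, overlaps none of the others and is not in capitals. The S100a6 window had no match to any of them, hence no capitals. The NF-kB consensus, present in 7.25% of all windows, had no match in the 6 windows of these genes, which says only that these letters are not there.

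The 6 genes covered a range of levels from among the most abundant messages to the bottom of the scale, and their order was the same in every library. A transcript yields a tag whatever its length, so the CPM levels of different genes were set side by side without a length correction. S100a6 averaged 12.52 log2 CPM over the 24 libraries (12.07 to 12.76) and was by itself 0.431% to 0.692% of the total CPM. S100a4 averaged 10.64 (10.40 to 10.92), S100a11 7.52 (7.23 to 7.85) and S100a10 6.93 (6.56 to 7.27). S100a13 followed at 4.22 (3.61 to 4.83). Only the ranges of S100a11 and S100a10 touched, and within each library S100a11 was the higher.

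S100a16 averaged -0.55 log2 CPM, ranged from -3.35 to 0.97, stood at 0 or above in 7 libraries and at the lowest value of the table in 1. All 6 genes passed the filter on low values, but S100a16 was at about 1 CPM, where log2 differences carry little precision. The sum of the 6 genes averaged 8424 CPM in Ado KO and 8266 CPM in control cells untreated, 8392 and 7970 CPM at 1 h, and 7376 and 6696 CPM at 6 h. S100a6 supplied 70.1% to 80.0% of that sum, so the sum mostly followed S100a6.

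**Figure D1:**
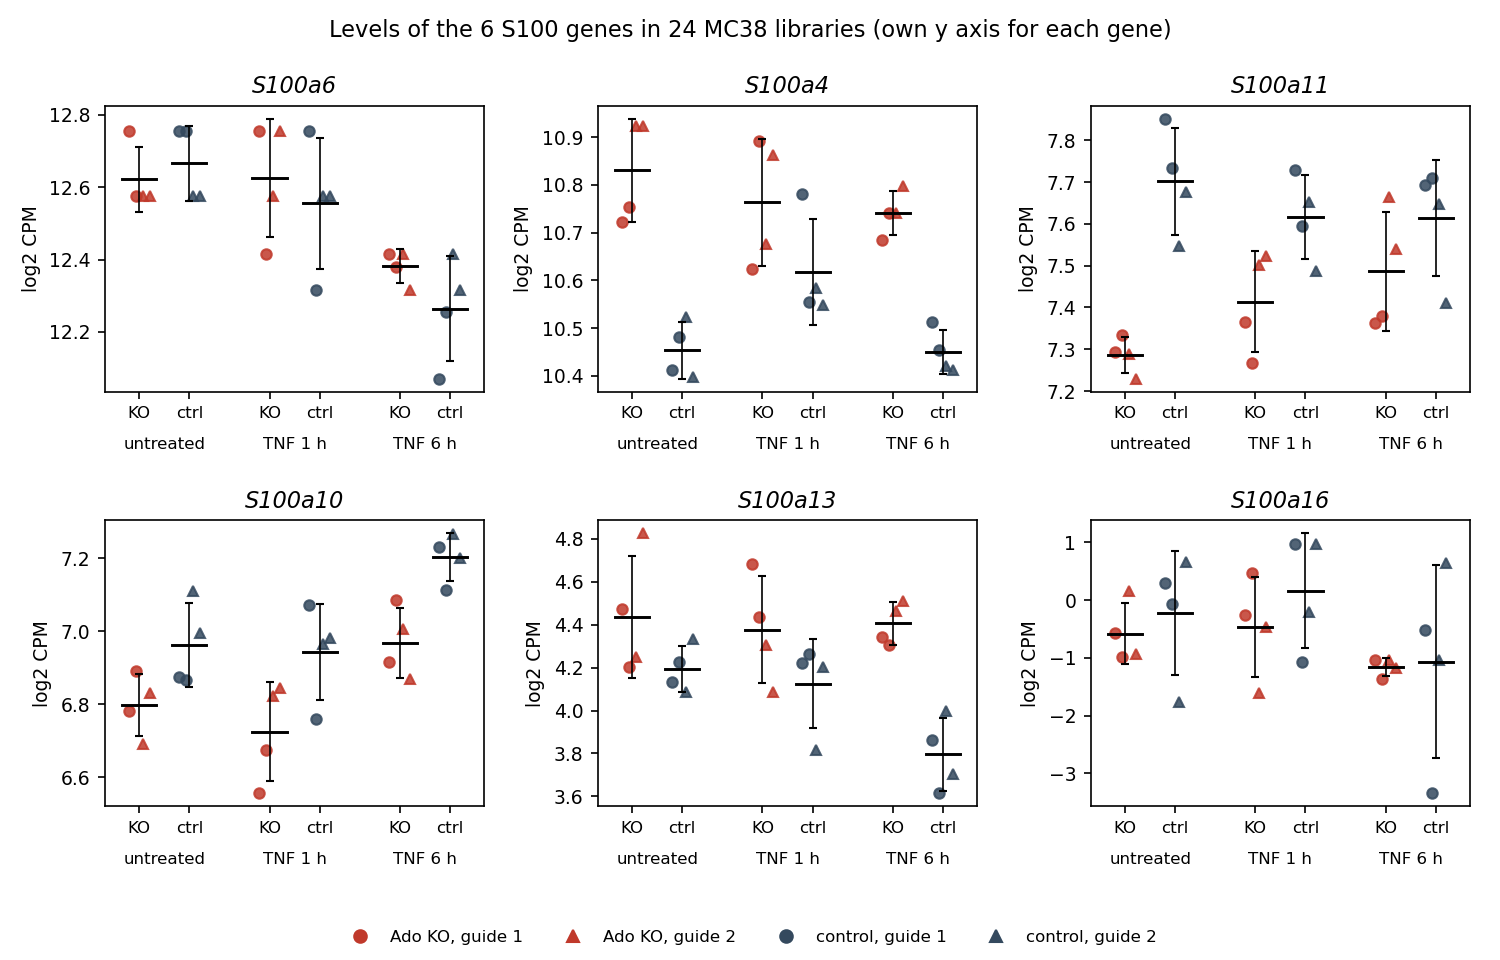
Deposited log2 CPM of each S100 gene (y axis, separate for each gene) in every library, with Ado KO left of control at each treatment (x axis). Circles are guide 1 and triangles guide 2, horizontal bars are group means and error bars SD of 4 libraries; S100a4 in untreated cells lies at 10.72 to 10.92 in Ado KO and 10.40 to 10.52 in control libraries.

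The first comparison set Ado KO against control cells without TNF. S100a4 was higher and S100a11 was lower in Ado KO cells, while S100a6, S100a10, S100a13 and S100a16 passed no test. These were 2 calls among 6 genes where 0.249% of all 13272 genes tested were called, 0.0678% as higher and 0.181% as lower. The same comparison at 1 h called 0 of the 6, where limma called 1.06% of all genes. Its unadjusted p (limma) was under 0.05 for 3 of the 6 and for 2094 of all 13272 genes. At 6 h it called S100a4 and S100a13, both higher (1.02% of all genes called, 0.422% as higher). The 3 comparisons of genotype use separate libraries, and at each of them the groups are also groups of guide populations.

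S100a4 read 10.72, 10.75, 10.92 and 10.92 log2 CPM in Ado KO untreated libraries 1-1, 1-2, 2-1 and 2-2, against 10.41, 10.48, 10.52 and 10.40 in control untreated libraries. The groups did not overlap, as in 6.34% of all genes, and both Ado guide 2 libraries were the highest of the 8. The log2 fold change was 0.38 ± 0.07 (SE; limma adjusted p = 0.00557), a level 29.9% higher. It held without any 1 of the 24 libraries (adjusted p 0.00198 to 0.0404) but without Ado guide 2 it was 0.28 with an adjusted p of 0.242.

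After 1 h of TNF the genotypes overlapped in S100a4. Its values were 10.62, 10.89, 10.68 and 10.86 log2 CPM in Ado KO libraries and 10.78, 10.56, 10.58 and 10.55 in control libraries, with a log2 fold change of 0.15 ± 0.07 (SE; limma adjusted p = 0.273). At 6 h they were 10.69, 10.74, 10.74 and 10.80 in Ado KO libraries and 10.51, 10.45, 10.42 and 10.41 in control libraries. Again no Ado KO library came down to a control one (8.63% of all genes had no overlap at 6 h), and the log2 fold change was 0.29 ± 0.07 (SE; limma adjusted p = 0.0223). That call ended without control TNF 6 h library 1-2, 2-1 or 2-2 or Ado KO TNF 6 h library 1-2, 2-1 or 2-2, at 0.27 to 0.29 and adjusted p of 0.0527 to 0.086. Without either Ado guide the 6 h call ended too. Of the 13 alternatives other than a left-out library 9 kept it, and all 13 ranged from 0.26 to 0.32 (limma adjusted p 0.00398 to 0.295). An annotated gene, Gm42674, shares its strand and 302 bases of transcript at 100% identity with S100a4 and is not used here, so how tags of the shared stretch were counted is unknown.

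S100a11 read 7.29, 7.33, 7.29 and 7.23 log2 CPM in Ado KO untreated libraries, against 7.85, 7.73, 7.55 and 7.68 in control untreated libraries. Every Ado KO library was below every control library, with an SD of 0.04 in Ado KO and 0.13 in control cells. Such a lack of overlap, in either direction, was found in 6.34% of all genes. The log2 fold change was -0.41 ± 0.08 (SE; limma adjusted p = 0.0195), or 156 ± 4.61 CPM in Ado KO and 209 ± 18.3 CPM in control cells (SD, n = 4 each). The call ended without control untreated library 1-1 (-0.37, adjusted p = 0.122) or 1-2 (-0.41, 0.0761) and without Ado KO untreated library 2-2 (-0.39, 0.0773). It also ended without control guide 1, without either Ado guide and with no variance trend in the fit. Of the 13 alternatives other than a left-out library 9 kept it, and all 13 ranged from -0.51 to -0.32 (limma adjusted p 0.00068 to 0.164).

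With TNF the genotypes overlapped in S100a11. At 1 h S100a11 read 7.37, 7.27, 7.50 and 7.52 log2 CPM in Ado KO libraries and 7.73, 7.60, 7.65 and 7.49 in control libraries, a log2 fold change of -0.20 ± 0.08 (SE; limma adjusted p = 0.223). At 6 h it read 7.36, 7.38, 7.66 and 7.54 in Ado KO libraries and 7.69, 7.71, 7.65 and 7.41 in control libraries, a log2 fold change of -0.13 ± 0.08 (SE; limma adjusted p = 0.615). At both times it was the Ado guide 2 libraries that reached into the control range. Over all treatments 8 of 12 Ado KO libraries, which come from 2 guide populations, stood below the lowest control library. How many of all genes have such a count was not taken, so it is a description.

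S100a11 has processed pseudogenes elsewhere in the genome that could share its tags. The closest, Gm12854 and Gm7665, matched its transcript at 99.0% and 98.7% identity over 297 bases, and S100a11 values are uncertain to the extent that tags were split among them. The 3 such pseudogenes with rows summed to 3.10 to 9.97 CPM per library, beside 150 to 231 CPM of S100a11. Their sums were 3.52 to 6.83 CPM in Ado KO and 6.65 to 8.46 CPM in control cells untreated. Gm12854, the highest of them, had a log2 fold change of -0.52 ± 0.26 there (SE; limma adjusted p = 0.595), the same sign as S100a11, and its part in the S100a11 result was not tested.

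S100a13 differed between genotypes at 6 h of TNF. It read 4.34, 4.30, 4.46 and 4.51 log2 CPM in Ado KO libraries, against 3.86, 3.61, 4.00 and 3.71 in control libraries. No library of one genotype reached the other, as in 8.63% of all genes, so both guides of each genotype necessarily showed the gap. The log2 fold change was 0.61 ± 0.15 (SE; limma adjusted p = 0.0376), the largest genotype difference called among the 6 genes, at 21.2 ± 1.45 CPM in Ado KO and 14.0 ± 1.65 CPM in control cells (SD, n = 4 each). The call ended without control TNF 6 h library 1-1, 1-2 or 2-2 or any 1 of the 4 Ado KO TNF 6 h libraries (0.55 to 0.64, adjusted p 0.0635 to 0.136). Leaving out either Ado guide ended it as well. Of the 13 alternatives other than a left-out library 8 kept it, and all 13 ranged from 0.53 to 0.69 (limma adjusted p 0.0135 to 0.339).

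In the other treatments the S100a13 genotypes overlapped. Untreated, it read 4.47, 4.20, 4.25 and 4.83 log2 CPM in Ado KO and 4.13, 4.22, 4.09 and 4.33 in control libraries, with a log2 fold change of 0.24 ± 0.15 (SE; limma adjusted p = 0.697). At 1 h it read 4.68, 4.43, 4.30 and 4.09 in Ado KO and 4.22, 4.26, 3.82 and 4.20 in control libraries, with a log2 fold change of 0.25 ± 0.15 (SE; limma adjusted p = 0.425). The neighbouring gene S100a1 is on the minus strand, with 42 bases between its start and the start of S100a13.

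S100a10 was on the low side in Ado KO cells at every treatment without passing the test. At 6 h it read 6.92, 7.08, 7.00 and 6.87 log2 CPM in Ado KO libraries, against 7.23, 7.11, 7.27 and 7.20 in control libraries, which did not overlap, as in 8.63% of all genes. Its log2 fold changes were -0.16 ± 0.08 untreated, -0.22 ± 0.08 at 1 h and -0.23 ± 0.08 at 6 h (SE; limma adjusted p = 0.601, 0.189 and 0.215). For S100a6 they were -0.04, 0.07 and 0.12, each ± 0.08 (SE) and adjusted p from 0.676 to 0.937. S100a16 had -0.36, -0.63 and -0.09, each ± 0.71 (SE), so that a doubling or a halving could not have been seen.

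**Figure D2:**
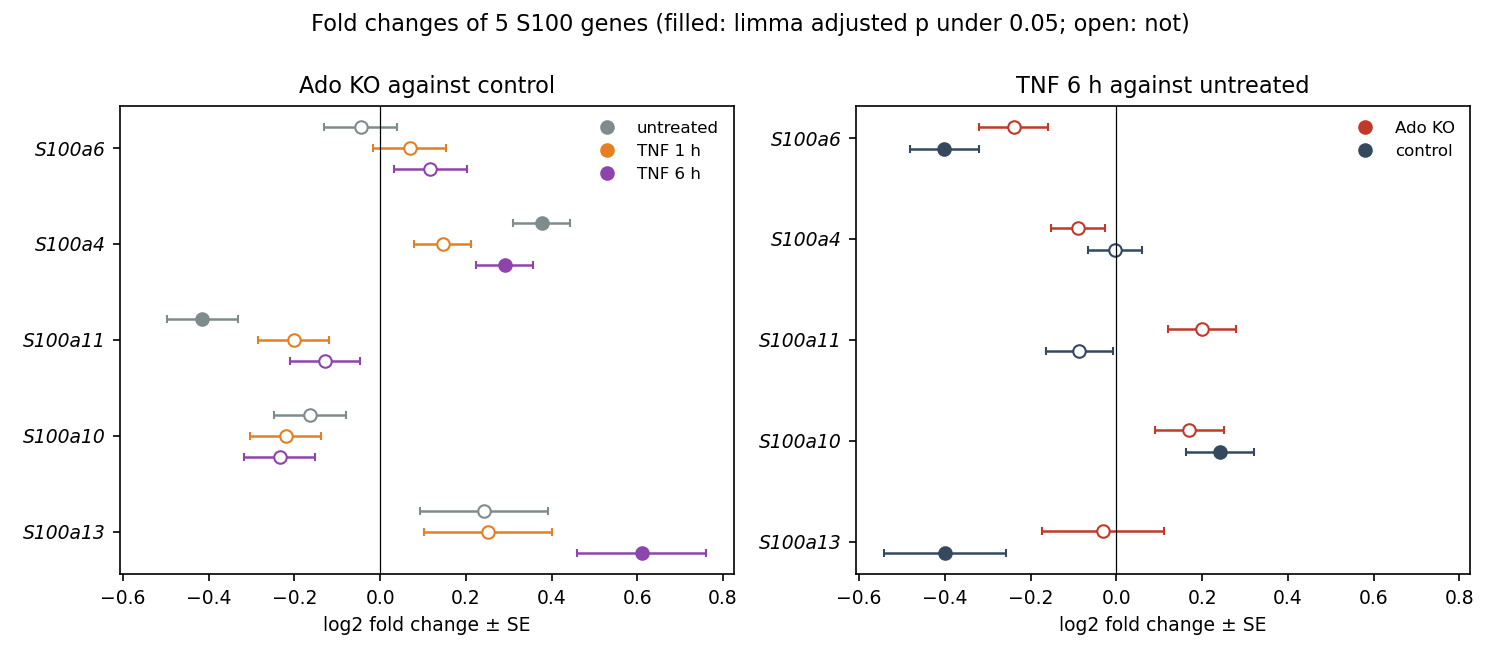
Log2 fold change with SE (x axis) of 5 S100 genes (y axis), Ado KO against control at each treatment on the left and 6 h of TNF against untreated in each genotype on the right. Filled points passed a limma adjusted p under 0.05; on the left these are S100a4 (0.38 and 0.29), S100a11 (-0.41) and S100a13 (0.61), and on the right S100a6 (-0.40), S100a10 (0.24) and S100a13 (-0.40) in control cells.

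The next comparison asked what TNF did within each genotype. At 1 h 0 of the 6 genes were called in Ado KO cells and 0 in control cells, where limma called 0.256% and 0.392% of all genes. In Ado KO cells 0 of the 6 and 963 of all 13272 genes had an unadjusted p under 0.05 (limma). For control cells these counts were 1 of the 6 and 1876 of all genes. The 1 was S100a4, whose control TNF 1 h libraries (10.55 to 10.78 log2 CPM) lay above the control untreated ones (10.40 to 10.52) without overlap, as 6.14% of all genes did in either direction, with a log2 fold change of 0.16 ± 0.06 (SE; limma adjusted p = 0.237).

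At 6 h 0 of the 6 genes were called in Ado KO cells, where limma called 6.44% of all genes. An unadjusted p under 0.05 (limma) was found there for 3 of the 6 and 2368 of all 13272 genes. In control cells S100a6 and S100a13 fell and S100a10 rose, 3 of the 6 genes where 18% of all genes were called, 10.3% as lower and 7.74% as higher. Markers of other cell types also moved at 6 h: of 4 tested endothelial and pericyte markers Pdgfrb fell in Ado KO cells, and Pdgfrb and Eng fell in control cells. The 5 such markers with rows summed to 25.0 to 29.0 CPM in Ado KO TNF 6 h and 28.8 to 42.2 CPM in Ado KO untreated libraries, and to 18.1 to 28.9 CPM in control TNF 6 h and 28.0 to 37.3 CPM in control untreated libraries. Of these 5 markers Cspg4 had the highest mean over all libraries, 4.56 log2 CPM. Eng averaged 1.13, Pdgfrb 1.04, Pecam1 -0.64 and the pericyte gene Rgs5 -2.85, near the lowest value. Of 8 tested mesenchymal markers Zeb1 rose in Ado KO cells (log2 fold change 1.15), and in control cells by the same measure Zeb1 (1.15) and Zeb2 (0.77) rose and Col3a1 (-0.66) and Fn1 (-0.41) fell. The 8 summed to 1515 to 1570 CPM in Ado KO TNF 6 h and 1463 to 1826 CPM in Ado KO untreated libraries, and to 1403 to 1655 CPM in control TNF 6 h and 1593 to 1836 CPM in control untreated libraries. The part of these markers in the S100 results was not tested.

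S100a6 read 12.42, 12.38, 12.42 and 12.32 log2 CPM in Ado KO TNF 6 h libraries, against 12.76, 12.58, 12.58 and 12.58 in Ado KO untreated ones. In control cells it read 12.07, 12.25, 12.42 and 12.32 at 6 h, against 12.76, 12.76, 12.58 and 12.58 untreated. In both genotypes every 6 h library was below every untreated one, as in 13.8% of all genes in Ado KO and 20.1% in control cells. The log2 fold change was -0.24 ± 0.08 in Ado KO (SE; limma adjusted p = 0.0756) and -0.40 ± 0.08 in control cells (SE; limma adjusted p = 0.000598), and the difference between these responses was 0.16 ± 0.11 (SE; limma adjusted p = 0.835).

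The repeated values of S100a6 come from the scale. Near the top of the scale a given rank has the same value in each library, so a gene there takes the value of its rank, and S100a6 had 7 distinct values in 24 libraries. Counting from the highest gene, it ranked 6 to 9 in Ado KO and 6 to 12 in control cells at 6 h, and 3 or 4 in both genotypes untreated. Part of that shift was made by genes outside a set of protein-coding genes. Besides genes of other types, the set left out histone genes and symbols that did not match exactly 1 annotated gene. Of the genes outside the set, 2 or 3 stood above S100a6 in Ado KO and 2 to 6 in control cells at 6 h, and 1 in every untreated library.

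Within that set, protein-coding genes without histone genes, S100a6 ranked 4 to 6 at 6 h and 2 or 3 untreated in both genotypes. When the protein-coding genes without histone genes were normalised again by themselves, the log2 fold change in control cells was -0.22 ± 0.06 (SE; limma adjusted p = 0.011), and in Ado KO cells -0.15 ± 0.06 (SE; limma adjusted p = 0.175). The fall in control cells was called without any 1 of the 24 libraries. It was larger in guide 1, whose 2 libraries at 6 h were the lowest of all, and without control guide 1 the log2 fold change was -0.21 with an adjusted p of 0.181.

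**Figure D3:**
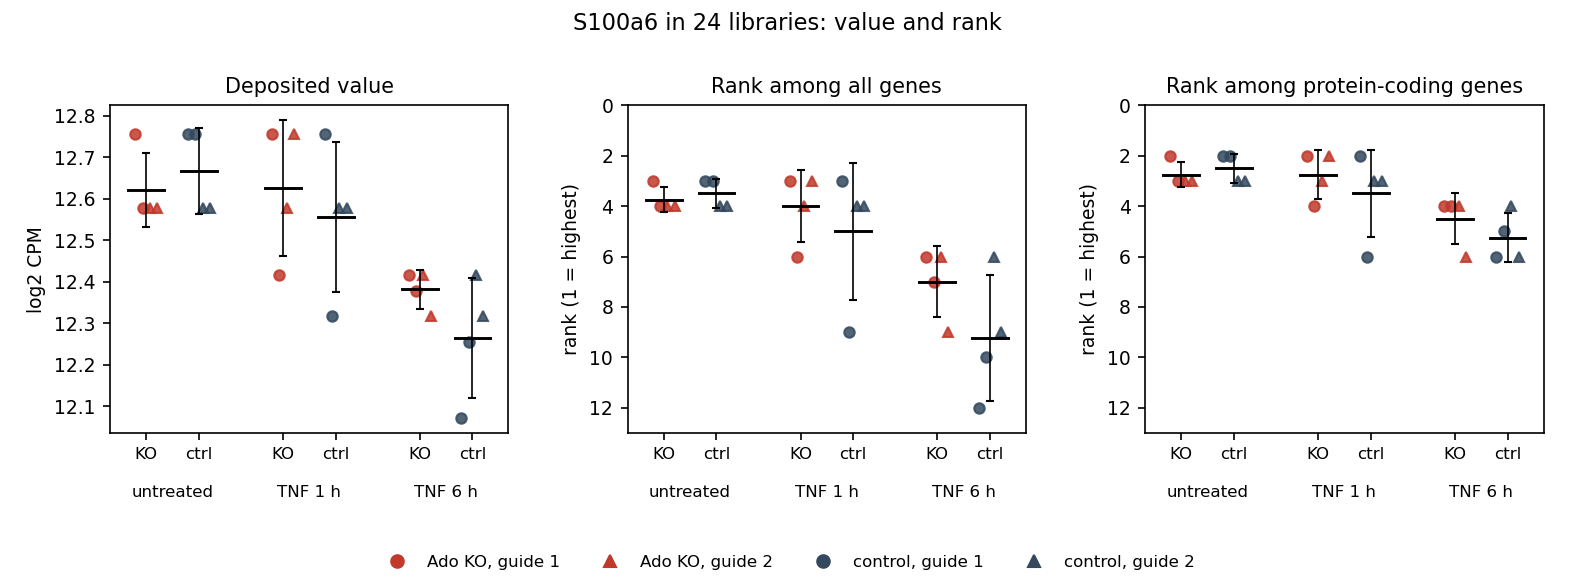
S100a6 in every library as the deposited log2 CPM (left), as its rank among all genes (middle) and as its rank among protein-coding genes without histone genes (right). Rank 1 is the highest gene, and Ado KO is left of control at each treatment on the x axis. Bars and error bars are means and SD of 4 libraries; at 6 h the rank among all genes was 6 to 9 in Ado KO and 6 to 12 in control cells, and among protein-coding genes 4 to 6 in both.

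S100a10 moved the other way. The 6 h and untreated values of Ado KO cells were 6.92, 7.08, 7.00 and 6.87 log2 CPM at 6 h and 6.78, 6.89, 6.69 and 6.83 untreated, a log2 fold change of 0.17 ± 0.08 (SE; limma adjusted p = 0.25). In control cells it read 7.23, 7.11, 7.27 and 7.20 at 6 h, against 6.88, 6.87, 7.11 and 7.00 untreated, a log2 fold change of 0.24 ± 0.08 (SE; limma adjusted p = 0.0335). The control groups stood apart by less than 0.01, between library 1-2 at 6 h and library 2-1 untreated. A lack of overlap between these groups was found in 20.1% of all genes. The call ended without control untreated library 1-1, 1-2 or 2-2 or control TNF 6 h library 1-1, 2-1 or 2-2, at 0.21 to 0.25 and adjusted p of 0.0535 to 0.104. The difference between the genotypes' responses was -0.07 ± 0.11 (SE; limma adjusted p = 0.944).

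S100a13 had a log2 fold change at 6 h of -0.03 ± 0.14 in Ado KO cells (SE; limma adjusted p = 0.942) and of -0.40 ± 0.14 in control cells (SE; limma adjusted p = 0.0492). In control cells the 6 h libraries (3.61 to 4.00 log2 CPM) lay below the untreated ones (4.09 to 4.33), without overlap as in 20.1% of all genes, whereas in Ado KO cells they lay within the untreated range. The responses differed by 0.37 ± 0.20 (SE; limma adjusted p = 0.782), so the data do not show that TNF acted on S100a13 in one genotype more than in the other. The control call was at the threshold and ended in 27 of 37 alternatives, 17 of which left out a single library (-0.34 to -0.43, adjusted p 0.0509 to 0.147). Those libraries were control untreated 1-1, 1-2, 2-1 and 2-2, control TNF 6 h 1-1, 1-2 and 2-2, control TNF 1 h 1-1 and 2-2, Ado KO untreated 1-1 and 2-1, Ado KO TNF 1 h 1-2 and 2-1, and all 4 of Ado KO TNF 6 h.

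S100a11 rose by no called amount but its Ado KO libraries separated in time. They read 7.36, 7.38, 7.66 and 7.54 log2 CPM at 6 h and 7.29, 7.33, 7.29 and 7.23 untreated, without overlap, as in 13.8% of all genes. The log2 fold change was 0.20 ± 0.08 (SE; limma adjusted p = 0.152). Guide 2 accounted for most of it, at 0.34 against 0.06 for guide 1. In control cells the log2 fold change was -0.09 ± 0.08 (SE; limma adjusted p = 0.48), and the responses of the genotypes differed by 0.29 ± 0.11 (SE; limma adjusted p = 0.621). S100a4 had log2 fold changes of -0.09 ± 0.06 in Ado KO and -0.00 ± 0.06 in control cells at 6 h (SE; limma adjusted p = 0.511 and 0.982). For S100a16 they were -0.57 ± 0.68 and -0.85 ± 0.68 (SE, limma adjusted p = 0.739 and 0.412). Its Ado KO libraries did not overlap either, and its control libraries did.

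Set against 1 h rather than untreated cells, 6 h of TNF gave 0 calls among the 6 genes in Ado KO cells and 2 in control cells. Limma called 7.77% of all genes in Ado KO and 7.68% in control cells. The unadjusted p (limma) was under 0.05 for 2 of the 6 and 2804 of all 13272 genes in Ado KO cells. For control cells these counts were 4 of the 6 and 2743 of all genes. S100a10 had a log2 fold change of 0.24 ± 0.08 in Ado KO (SE; limma adjusted p = 0.0537) and 0.26 ± 0.08 in control cells (SE; limma adjusted p = 0.0387), close to equal values on either side of the threshold. S100a6 had -0.24 ± 0.08 in Ado KO (SE; limma adjusted p = 0.0589) and -0.29 ± 0.08 in control cells (SE; limma adjusted p = 0.0187), and the control call ended without control TNF 1 h library 1-1 (-0.22, adjusted p = 0.109) or control TNF 6 h library 1-1 (-0.23, 0.113). With protein-coding genes normalised again the S100a6 log2 fold change in control cells was -0.14 and no longer called (limma adjusted p = 0.2). The S100a10 call ended without control TNF 1 h library 1-2, 2-1 or 2-2 or control TNF 6 h library 1-1, 2-1 or 2-2, at 0.20 to 0.27 and adjusted p of 0.0624 to 0.13. The 6 h libraries are those of the comparison with untreated cells, so these values are not a further observation of it.

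The difference in TNF response between genotypes was called for 0 of the 6 genes at 1 h and 0 at 6 h. Limma called 0% and 0.347% of all genes. An unadjusted p under 0.05 (limma) was reached by 1304 of all 13272 genes at 1 h and 893 at 6 h, and by 1 of the 6 each time. The 1 was S100a4 at 1 h, at -0.23 ± 0.09 (SE; adjusted p = 0.441), and S100a11 at 6 h. The guides of a genotype were compared over all treatments, where 0 of the 6 genes were called between Ado guides and 0 between control guides. Limma called 0.158% of all genes between Ado guides and 4.61% between control guides. An unadjusted p under 0.05 (limma) was reached by 1167 of all 13272 genes between Ado guides and 2550 between control guides. Of the 6 genes, 1 reached it between Ado guides and 1 between control guides. Both of these were S100a11, at 0.12 ± 0.05 for Ado guide 2 against guide 1 (SE; limma adjusted p = 0.513) and -0.15 ± 0.05 for control guide 2 against guide 1 (SE; limma adjusted p = 0.105).

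By guide population, S100a4 averaged 10.74 and 10.82 log2 CPM over the 6 libraries of Ado guides 1 and 2, against 10.53 and 10.48 for control guides 1 and 2. S100a13 averaged 4.41 in both Ado populations, against 4.05 and 4.02 in the control populations. S100a10 averaged 6.82 and 6.84 with Ado guides and 6.99 and 7.09 with control guides, and S100a11 averaged 7.33 and 7.46 with Ado guides and 7.72 and 7.57 with control guides. For S100a6 the 4 means were 12.55 and 12.54 with Ado guides and 12.48 and 12.51 with control guides, and for S100a16 they were -0.63 and -0.84 with Ado guides and -0.62 and -0.12 with control guides. In all 6 genes both Ado populations were on one side of both control populations, an arrangement shared by 41.2% of all genes, and in S100a6 and S100a16 the nearest populations were less than 0.05 apart.

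**Figure D4:**
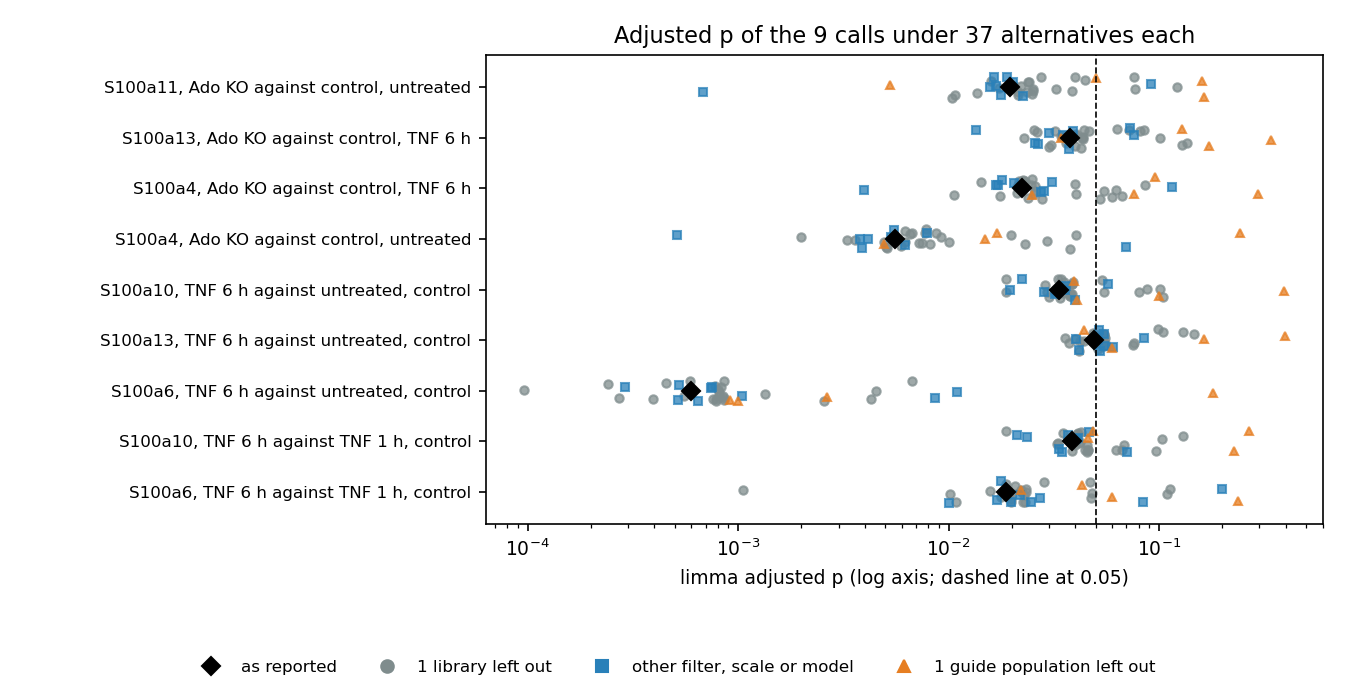
Limma adjusted p (x axis, log scale) of the 9 S100 calls (y axis) as reported and under 37 alternatives each; the dashed line is at 0.05. Black diamonds are the reported values, circles fits without 1 library, squares another filter, scale or model, and triangles fits without 1 guide population; S100a13 in control cells at 6 h (0.0492) sits on the line.

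Other S100 genes had rows without being among the 6. S100a3, which lies between S100a16 and S100a4, fell at 6 h in both genotypes, by 0.84 ± 0.20 on the log2 scale in Ado KO (SE; limma adjusted p = 0.00686) and by 1.15 ± 0.20 in control cells (SE; limma adjusted p = 0.000104). It averaged 3.92 CPM in Ado KO and 3.68 CPM in control cells at 6 h, and 6.94 CPM in Ado KO and 8.05 CPM in control cells untreated, and it was not called between genotypes (log2 fold changes of -0.21, 0.16 and 0.10). S100a1 had genotype log2 fold changes of 0.28, 0.50 and 0.36, each ± 0.17 (SE; limma adjusted p = 0.695, 0.149 and 0.426). S100a5 averaged -0.84 log2 CPM with no call. S100a2, S100a7a and S100a8, the last a neutrophil and macrophage gene, did not pass the filter, with S100a8 at the lowest value in 14 libraries. Of 12 immune markers 7 had rows and summed to 11.9 to 26.8 CPM per library, with Cd14 the highest at a mean of 2.31 log2 CPM.

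Proteins that S100 dimers bind were followed as a list of 25 genes, of which 18 were tested. At 6 h none of the 18 was called in Ado KO cells, where limma called 6.44% of all genes. An unadjusted p under 0.05 (limma) was found there for 1 of the 18 and 2368 of all 13272 genes. In control cells 2 rose, where 7.74% of all genes were called higher and 18% in either direction. They were Cacybp, which encodes the S100a6-binding protein, by 0.50 ± 0.14 (SE; limma adjusted p = 0.0136), and the helicase-like factor gene Hltf by 0.65 ± 0.23 (SE; limma adjusted p = 0.0483). The median log2 fold change of the list was 0.03 there, and -0.09 over all genes. Between genotypes the list had 1 call over the 3 treatments, Ahnak at 1 h, whose giant product binds S100a10 with annexin A2, at -0.46 ± 0.11 (SE; limma adjusted p = 0.0283), where 1.06% of all genes were called. Anxa2 itself, the annexin A2 partner of S100a10, averaged 10.67 log2 CPM and was called only for 6 h against 1 h in Ado KO cells, at -0.31 ± 0.08 (SE; limma adjusted p = 0.0112).

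Of 33 other EF-hand genes tested, 1 fell in Ado KO cells at 6 h of TNF, the integrin-binding Cib1 at -0.43 ± 0.13 (SE; limma adjusted p = 0.0432), where 6.44% of all genes were called. In control cells 2 rose and 5 fell, 7 of 33 where 18% of all genes were called, with a median log2 fold change of -0.03 beside -0.09 over all genes. The lower genes included Chp1, a partner of sodium-proton exchangers (-0.48 ± 0.09, SE; limma adjusted p = 0.000277), the matrix protein gene Sparc (-0.43 ± 0.10, SE; limma adjusted p = 0.00202) and again Cib1 (-0.44 ± 0.13, SE; limma adjusted p = 0.0179), while the centrin gene Cetn3 was higher (0.53 ± 0.14, SE; limma adjusted p = 0.00955). Among 10 tested genes within 250 kb of an S100 gene, 2 fell in control cells at 6 h, where 10.3% of all genes were called lower. They were Gm22752 and Gm5278, with equal log2 fold changes of -0.95 and equal means in 3 of the 6 groups; whether they share tags was not tested.

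Over the 12 means of guide and treatment, S100a4 and S100a13 varied together (Pearson r = 0.788) and both varied against S100a10 (r = -0.719 and -0.820), values that hold the genotype and treatment differences given above. S100a4 and S100a11 had r = -0.714. Outside the family, the genes most like S100a4 were Gng12 (r = 0.907), a G protein subunit gene, and Slit2 (r = 0.883), an axon guidance ligand gene. For S100a6 they were the small GTPase gene Rab8a (r = 0.976) and Nid2 (r = 0.964), and for S100a10 the MHC class I gene H2-D1 (r = 0.915) and Stxbp3 (r = 0.889). S100a11 was most like G3bp1 (r = 0.857) and Lmbrd1 (r = 0.850), S100a13 like Mrps35 (r = 0.924) and Cers5 (r = 0.921), and S100a16 like Ctc1 (r = 0.958) and Asap3 (r = 0.952). These are the highest values over 13272 genes, from 12 points that share guides and normalisation, and they are descriptions.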

How the data were processed

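RNA of 24 MC38 libraries was counted as 3′ tags. Per the submitters' processing notes, FastQC, cutadapt 1.7, HISAT2, featureCounts, Subread and limma were used with GRCm38 (mm10); other versions are not given in the sources used here. The deposited table holds log2 CPM values that the authors had normalised: unlogged libraries summed to 998900 to 999014, and their lowest (-3.349) and highest (17.035) values were identical, as after quantile normalisation. Depth is not given, so no counting interval is, and each library had 617 to 1013 genes at its lowest value.

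Values were used as deposited, without a pseudocount. Genes at 0 or above in at least 4 libraries (13272) were fitted with limma 3.58.1 (R 4.3.3, statmod 1.5.0) on 6 group means of 4 libraries, with guide population as random block (correlation 0.0485) and a variance trend; guides were compared on 12 means. A two-sided p adjusted by Benjamini-Hochberg over every fitted gene had to be under 0.05. The fit was also run on simulated data. These had no differences between guide populations, so the run cannot check the genotype tests, whose groups are guide populations. Named genes were all S100 rows, up to 4 called genes per list and comparison, and the 2 most correlated genes of each S100 gene; Vim, marker, pseudogene and TNF response genes were named as checks, and 1 result that the rule names is not reported here. The S100 genes and lists were chosen with earlier results of these data known. Similar transcripts (85% identity over 50 bases, GENCODE M21) were found with blastn 2.17.0, and figures drawn with matplotlib 3.10.9 (Python 3.11.15). Alternatives changed the filter, scale, normalisation, guide term and variance trend, and left out each library and each guide population.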

Additional observations from a re-analysis of the deposited data

Results flagged for a closer look

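Within each group of 4 libraries the highest and the lowest value of each S100 gene were compared with their neighbours. Of 36 groups 3 had a library that stood apart by Dixon's criterion at the 95% level; chance alone gives about 1 in 20. S100a4 in control TNF 1 h library 1-1 was 10.78 log2 CPM, above 10.55 to 10.58 in the other 3, and this library is the one that overlaps the Ado KO libraries at 1 h. S100a6 in Ado KO untreated library 1-1 was 12.76 log2 CPM, where the other 3 were all at 12.58, which are neighbouring ranks of a rank-based scale. S100a13 in control TNF 1 h library 2-1 was 3.82 log2 CPM, below 4.20 to 4.26 in the other 3.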

How the results depend on the processing

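Of 2825 alternative values of 78 single-gene results, 2722 kept their side of the threshold, 83 lost a call, 20 gained one and 0 reversed a called direction. Only 9 of the 78 results were called, with 37 alternatives each, and all 83 losses fell on those 9. The share of values that kept their side is therefore mostly that of results never called. The counts of S100 genes called were as follows, beside the reported ones, and the cause of each change was not tested. Leaving out 1 library at a time gave 0 to 1 for 6 h of TNF in Ado KO cells (reported 0) and 1 to 3 in control cells (3), 0 to 2 for 6 h against 1 h in Ado KO cells (0) and 0 to 2 in control cells (2), and 1 to 2 for genotype untreated (2) and 0 to 2 at 6 h (2); the other 7 comparisons stayed at 0. With no variance trend the counts were 1 for 6 h in control cells, 0 for 6 h against 1 h in control cells, and 0 for genotype both untreated and at 6 h. Protein-coding genes normalised again (a choice that also ended the S100a6 call for 6 h against 1 h in control cells) gave 1 for 6 h against 1 h in either genotype and 1 for genotype at 6 h (S100a13 0.59, adjusted p = 0.076). For 6 h against 1 h in Ado KO cells the stricter filter and the fixed guide term gave 2 each and recentring 1, and the fixed guide term gave 1 for 6 h in Ado KO cells. Without control guide 1 the counts were 1 for 6 h and 2 for 6 h against 1 h in Ado KO cells, 0 and 0 for these in control cells, and 1 for genotype untreated and 1 at 6 h. Without control guide 2 they were 1 and 0 for the TNF comparisons in control cells and 1 for genotype at 6 h. Without Ado guide 1 genotype gave 1 untreated and 0 at 6 h, and without Ado guide 2 it gave 0 at both; the untreated S100a4 call held without each of the other 3 populations. With a replicate block (guide and library number, 8 levels, correlation 0.0232) S100a13 at 6 h in control cells was no longer called (adjusted p = 0.0512), which left 2 calls there, and no other call changed; the numbers do not pair the libraries, since the correlation of replicate differences across treatments was -0.158 to 0.0543. In control guide 2 at 1 h titles and column names number the libraries oppositely; columns were joined by description and numbers follow titles. Depth is unknown, and S100a16 near 1 CPM could not show changes of the size seen in the other genes.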
